A study of Homo sapiens with 12 samples.

Results

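The mRNAs of the nuclear-encoded subunits of mitochondrial complex I were followed in U2OS cells, a human osteosarcoma line, on 12 Illumina bead arrays. Members were the gene symbols beginning with NDUFA, NDUFB, NDUFC, NDUFS, NDUFV or NDUFAB in the probe table of the arrays. The 8 NDUFAF symbols, which name assembly factors, and 1 antisense RNA were left out. This gave 36 genes on 42 probes, and 35 of them had a probe that passed the detection filter, of 12290 named genes tested in all. NDUFS6, a zinc-binding subunit of the peripheral arm, was detected on 2 arrays and did not pass. The genes long called NDUFA4 and NDUFA4L2 stand in the table under their newer symbols, COXFA4 and COXFA4L2, and so were no members.

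Cells were given MEB55 or ST362, synthetic analogues of the strigolactone plant hormones, at 5 ppm in acetone, or the acetone vehicle alone, each with labels of 6 h and 24 h. The groups were MEB55 6 h, MEB55 24 h, ST362 6 h, ST362 24 h, vehicle 6 h and vehicle 24 h, with 2 arrays in each of the 6 groups. Both analogues were matched by mass, so their molar doses differed. The study describes the arrays as made from duplicate sample sets and shows the earlier time as independent experiments, while the labels do not say which arrays came from separate cultures. The p-values measure the spread between these arrays.

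Complex I is the entry point of electrons from NADH into the mitochondrial respiratory chain. Its peripheral arm oxidizes NADH at a flavin in the N module and passes electrons along iron-sulfur clusters to ubiquinone in the Q module, and its membrane arm pumps protons. Core subunits carry out the catalysis, some made from nuclear and some from mitochondrial genes, while accessory subunits surround them and are needed for assembly and stability. The mitochondrially encoded core subunits are not in the probe table and were not analysed here.

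The stretches before the transcription starts of 3 members are shown because NDUFA13 had the largest positive difference among members with both analogues, and because NDUFS3 and NDUFS7 belong to the Q module, whose 3 measured core genes had negative differences with both. They are the 250 bases before the start from RefSeq on GRCh38.p14, read 5′ to 3′ on the plus strand. Capitals mark matches, on either strand, to the letters searched for NRF1 (CGCATGCG), ETS factors (CCGGAAG) and the oestrogen-related receptors (AAGGTCA), factors known for their part in the transcription of respiratory chain genes. NDUFA13 lies on chr19:19516225-19528198, NDUFS3 on chr11:47579074-47584562 and NDUFS7 on chr19:1383907-1395584.
NDUFA13: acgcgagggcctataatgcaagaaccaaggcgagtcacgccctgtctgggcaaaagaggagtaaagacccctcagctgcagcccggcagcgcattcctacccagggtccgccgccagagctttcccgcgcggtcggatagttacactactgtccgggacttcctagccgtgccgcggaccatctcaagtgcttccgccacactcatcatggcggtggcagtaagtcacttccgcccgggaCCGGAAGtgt
NDUFS3: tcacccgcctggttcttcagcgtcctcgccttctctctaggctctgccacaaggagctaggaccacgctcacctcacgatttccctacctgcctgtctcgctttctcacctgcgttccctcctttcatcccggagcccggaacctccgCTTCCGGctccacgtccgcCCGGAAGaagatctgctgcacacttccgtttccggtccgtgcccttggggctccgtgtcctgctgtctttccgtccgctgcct
NDUFS7: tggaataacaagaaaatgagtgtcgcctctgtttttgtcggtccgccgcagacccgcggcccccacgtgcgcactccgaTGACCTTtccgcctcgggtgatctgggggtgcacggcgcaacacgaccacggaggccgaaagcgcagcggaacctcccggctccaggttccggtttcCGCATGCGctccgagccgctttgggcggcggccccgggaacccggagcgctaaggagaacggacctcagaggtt
The printed stretches are chr19:19515975-19516224 for NDUFA13, chr11:47578824-47579073 for NDUFS3 and chr19:1383657-1383906 for NDUFS7. NDUFA13 held 1 ETS match, NDUFS3 held 2, and NDUFS7 held 1 NRF1 and 1 oestrogen-related receptor match, and no matches overlapped. Across members, 32 of 36 genes had at least 1 RefSeq window of 300 bases (250 before to 50 after the start), 39 windows in all. The NRF1 letters were in 12.8% of the members' windows and in 2.02% of all 35116 windows. The YY1 letters AAGATGGC were in 17.9% of the members' windows and 2.89% of all, those of the oestrogen-related receptors in 12.8% and 3.92%, those of ETS factors in 12.8% and 10.3%, and a heat shock element, GAANNTTC, in 10.3% and 6.77%. These shares describe letters and not binding. NDUFS8, the remaining core gene of the Q module, also had a RefSeq window. No match to any of the letters searched was found for it, and it is not printed above.

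Values are log2 signals after background correction and quantile normalization, each gene read from its brightest tested probe, and array values are given relative to the mean of the 4 vehicle arrays. In every list of 4 array values the order is 6 h replicate 1, 6 h replicate 2, 24 h replicate 1 and 24 h replicate 2. A gene was called at a Benjamini-Hochberg adjusted p under 0.05 in limma, over all 22186 tested probes. On the arrays, 42.73% to 47.35% of probes were detected, and vehicle 6 h replicate 1 was brighter than the rest, with a 75th percentile of raw signal of 149.3 against 115.1 to 125.4. Each of the 8 analogue arrays correlated best, among the arrays of its analogue, with an array of the other time label, as did 2 of the 4 vehicle arrays with another vehicle array. Whether time labels were exchanged was not tested, so it is uncertain which arrays the values labelled 6 h and 24 h, and the changes between them, refer to. Comparisons over both time labels, 4 arrays against 4, were therefore made beside the labelled ones. Of the lineage markers, VIM, SPARC, COL1A1 and CD44 were detected on 12 arrays, RUNX2 and FN1 on 7 and COL1A2 on 1. PTPRC, CD3E and KRT5 were detected on 0 arrays, the endothelial PECAM1, CDH5 and VWF on 1 each, and EPCAM, CD68 and ALB on 12. The epithelial CDH1 was detected on 3 arrays and CLDN4 on 6, and the hepatocyte APOA1 on 1 and TTR on 2. The summed linear level of the 3 hepatocyte markers was 117 to 151 on MEB55 arrays, 119 to 154 on ST362 arrays and 103 to 115 on vehicle arrays. ALB made up most of this sum, at a mean log2 level of 6.37, with APOA1 at 4.40 and TTR at 4.32, close to background. The part of the sum in any value below was not tested.

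No member was called in any of 11 comparisons, and over both time labels every estimated difference from vehicle was under 0.35 log2 units in size. Over both times 0 of 35 members passed with MEB55 against vehicle, where 69 of 12290 genes (0.561%) did, and 0 of 35 with ST362 against vehicle, where 94 genes (0.765%) did. Between MEB55 and ST362 0 members and 3 genes (0.0244%) passed. At an unadjusted p under 0.05, 0 members were higher and 0 lower with MEB55, against 5.92% and 6.31% of genes. With ST362, 1 member was higher and 1 lower, against 7.77% and 7.73% of genes, and in MEB55 minus ST362 0 members were higher and 1 lower, against 3.78% and 4.8% of genes.

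Over both time labels, the 95% interval of the measured difference lay within 2-fold either way for all 35 tested members in MEB55 against vehicle, as it did for 93.8% of genes. The same held for 35 of 35 with ST362, against 92.9% of genes, and for 35 of 35 in MEB55 minus ST362, against 95.5% of genes. The widest of these intervals reached 0.42 log2 units to each side of its estimate. They limit the measured signal, and for the 6 members near background named below, whose differences are compressed, they do not limit the change in mRNA. The labelled comparisons had wider intervals, up to 0.69 to each side. Within 2-fold lay 35 members for MEB55 at 6 h (81.6% of genes) and 34 at 24 h (80.6%), and 35 for ST362 at 6 h (79.3%) and 33 at 24 h (77.2%). For the change of the effect between time labels, with intervals of up to 0.98 to each side, it was 27 of 35 with MEB55 (56.5% of genes) and 29 of 35 with ST362 (53%). The median log2 difference of the members was -0.02 with MEB55 and 0.06 with ST362, beside -0.01 and -0.01 over all genes tested, and -0.03 in MEB55 minus ST362, beside 0.0041 over all genes. Scaling to the 75th percentile gave 0.07 with MEB55, 0.01 with ST362 and 0.08 between them, and cyclic loess gave 0.0052 with MEB55 and 0.0016 between them, so the sign of the MEB55 median depended on the scaling. With MEB55 17 members had a positive and 18 a negative difference, with ST362 24 and 11. The positive counts include NDUFC2 and NDUFB1, which passed the detection filter only through groups given an analogue. The sign of their differences is therefore not independent of the filter. No share of positive differences over all genes was set beside these counts.

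**Figure D1:**
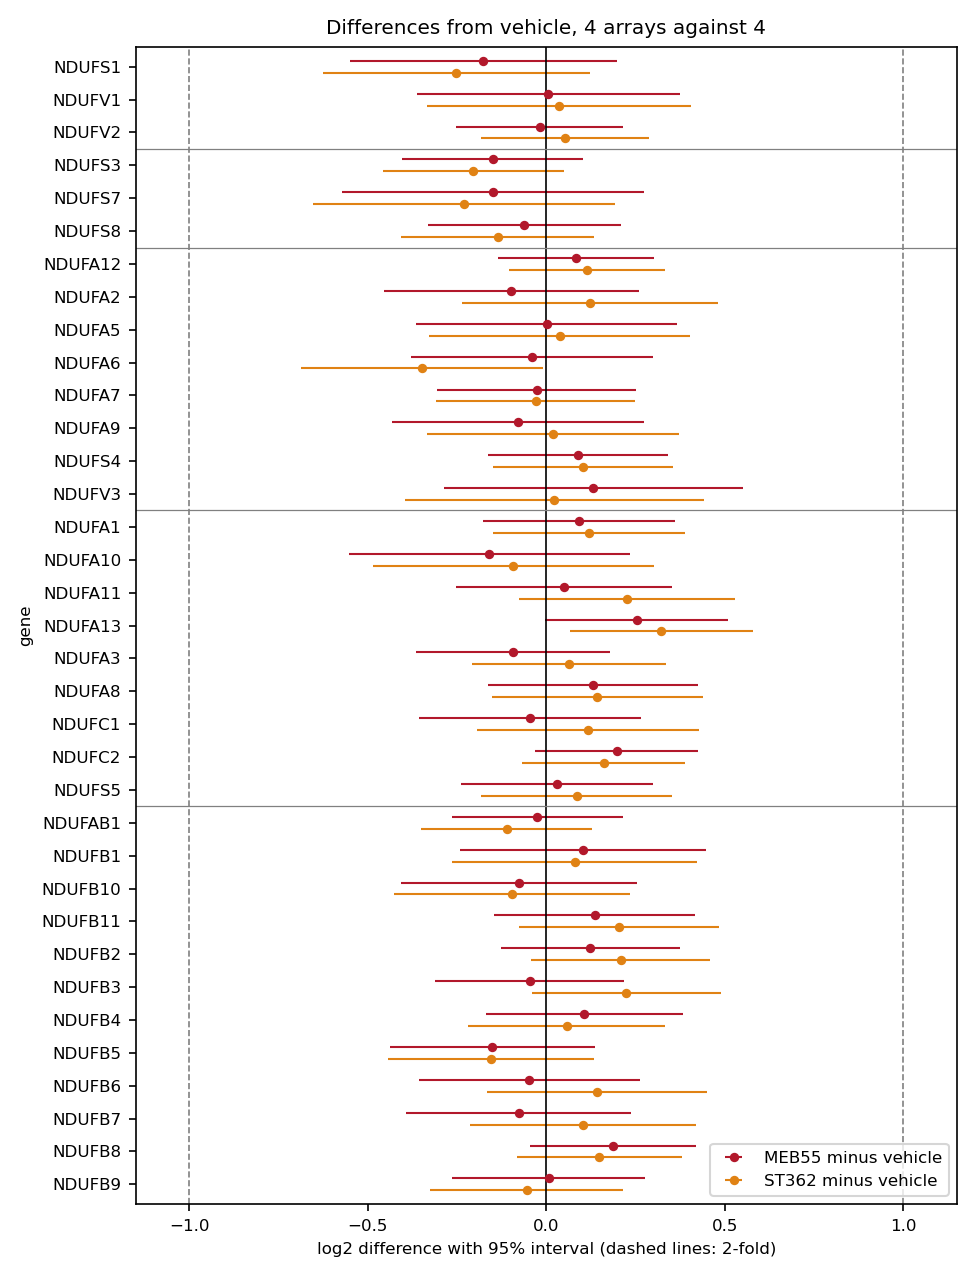
Log2 difference from vehicle of each of the 35 tested members over both time labels (x axis), with its 95% interval from limma, for MEB55 (red, upper of each pair) and ST362 (orange), 4 arrays against 4; genes run down the y axis by role in the complex, and dashed lines mark a 2-fold difference. In these comparisons every interval ended inside the 2-fold lines, and those of NDUFA13 and NDUFA6 with ST362 did not reach 0.

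The median spread of the members over the 12 arrays was lower than that of all genes tested, though not every member varied less. Their SD over all arrays ran from 0.0865 for NDUFA12, an accessory subunit of the peripheral arm, to 0.298 for NDUFS7, with a median of 0.178 on the log2 scale, against a median of 0.24 over all genes tested. NDUFS7, NDUFV3, NDUFA10, NDUFS1, NDUFA6 and NDUFA2 each had an SD above that median over all genes. The spread was not set beside that of the other respiratory complexes. Among genes with a vehicle mean of 8 or more on the log2 scale, the median SD was 0.174 for 29 members and 0.232 for 3663 genes. The other 6 members, NDUFA5, NDUFB1, NDUFB4, NDUFC2, NDUFS1 and NDUFV3, had vehicle means under 6, close to background, where differences are compressed.

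**Figure D2:**
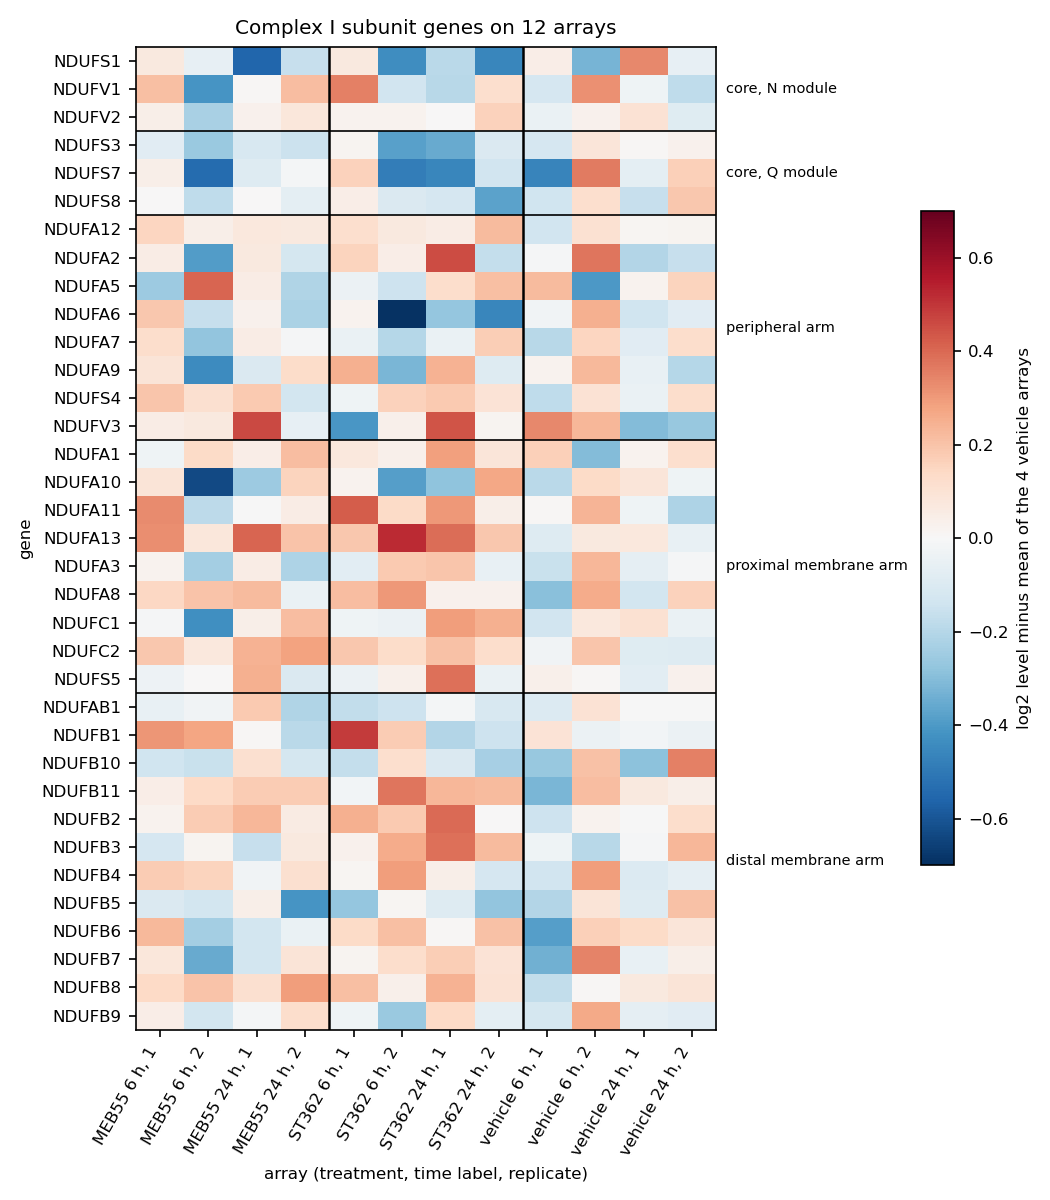
Log2 level of the 35 tested members (rows, grouped by role) on the 12 arrays (columns, MEB55 then ST362 then vehicle, by time label and replicate), as difference from the mean of the 4 vehicle arrays; red is higher and blue lower. Colours changed from array to array within a treatment, and NDUFA13 was the only row whose 8 analogue arrays all exceeded its highest vehicle array.

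The N module oxidizes NADH, and its 3 core genes showed no common direction. NDUFV1 binds the flavin. Its levels were 0.21, -0.42, 0.01 and 0.22 on the MEB55 arrays and 0.35, -0.14, -0.19 and 0.12 on the ST362 arrays, against -0.12, 0.32, -0.03 and -0.18 on the vehicle arrays. All 3 treatments had arrays on both sides of 0, and the differences were 0.0056 (SE 0.17, adjusted p = 0.995) with MEB55 and 0.04 (SE 0.17, adjusted p = 0.958) with ST362 in limma. NDUFV2, which carries an iron-sulfur cluster beside the flavin, was the steadier partner, with an SD of 0.0995 over the 12 arrays. On MEB55 arrays it stood at 0.04, -0.23, 0.03 and 0.08 and on ST362 arrays at 0.02, 0.02, 0.00037 and 0.16, against -0.05, 0.03, 0.10 and -0.09 on vehicle arrays. NDUFS1, the large iron-sulfur subunit of the module, was detected on 3 of 4 MEB55 arrays, 4 of 4 ST362 arrays and 4 of 4 vehicle arrays, at low signal. It read 0.07, -0.06, -0.56 and -0.16 on the MEB55 arrays and 0.07, -0.44, -0.19 and -0.46 on the ST362 arrays, against 0.05, -0.32, 0.34 and -0.06 on the vehicle arrays. The ranges overlapped, and the differences of -0.18 (SE 0.17, adjusted p = 0.799) with MEB55 and -0.25 (SE 0.17, adjusted p = 0.585) with ST362 did not pass.

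The 3 measured core genes of the Q module all had negative differences with both analogues, except that NDUFS8 with MEB55 was at 0.0185 when arrays were scaled to their 75th percentile and reached 0.00156 with 1 array left out, and none passed the test. NDUFS3, a core subunit of this module that carries no iron-sulfur cluster, read -0.08, -0.26, -0.11 and -0.15 on MEB55 arrays and 0.02, -0.38, -0.35 and -0.10 on ST362 arrays, against -0.12, 0.08, 0.01 and 0.03 on vehicle arrays. Its 4 MEB55 arrays were all below the vehicle mean, but vehicle 6 h replicate 1 lay among them. The differences were -0.15 (SE 0.12, adjusted p = 0.733) with MEB55 and -0.20 (SE 0.12, adjusted p = 0.496) with ST362. NDUFS7 holds the last iron-sulfur cluster before ubiquinone. Its levels were 0.04, -0.54, -0.09 and -0.01 with MEB55 and 0.16, -0.48, -0.46 and -0.14 with ST362, against -0.46, 0.36, -0.07 and 0.17 with vehicle. Both vehicle 6 h arrays were farther apart than any pair of analogue arrays. The difference was -0.15 with MEB55 (SE 0.20, adjusted p = 0.861) and -0.23 with ST362 (SE 0.20, adjusted p = 0.670). NDUFS8, which holds iron-sulfur clusters on the path to ubiquinone, read 0.0017, -0.18, 0.0017 and -0.07 with MEB55 and 0.05, -0.10, -0.12 and -0.38 with ST362, against -0.14, 0.12, -0.16 and 0.19 with vehicle. The difference was -0.06 with MEB55 (SE 0.13, adjusted p = 0.922) and -0.14 with ST362 (SE 0.13, adjusted p = 0.695), within or near its error.

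Among the accessory genes of the peripheral arm was NDUFA6, which had the most negative difference of all members with ST362 over both time labels, while NDUFS1 had it with MEB55. NDUFA6, a LYR-motif protein that binds the mitochondrial acyl carrier protein, read 0.19, -0.16, 0.03 and -0.22 on MEB55 arrays and 0.02, -0.69, -0.27 and -0.45 on ST362 arrays, against -0.03, 0.25, -0.14 and -0.08 on vehicle arrays. Apart from 6 h replicate 1, the ST362 arrays lay below all vehicle arrays. The difference with ST362 was -0.35 (95% interval -0.69 to -0.01, unadjusted p = 0.0442, adjusted p = 0.363), and with MEB55 it was -0.04 (SE 0.16, adjusted p = 0.962). MEB55 minus ST362 came to 0.31 (SE 0.16, adjusted p = 0.666), so the analogues were not shown to differ for this gene. NDUFA5 was detected on 2 MEB55, 4 ST362 and 3 vehicle arrays, and its differences were 0.00032 and 0.04. The other 6 tested genes of this set, NDUFA2, NDUFA7, NDUFA9, NDUFA12, NDUFS4 and NDUFV3, lay between -0.10 and 0.13 with MEB55 and between -0.03 and 0.12 with ST362.

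Among the accessory genes of the proximal membrane arm, 8 of 9 differences were positive with ST362 and 6 of 9 with MEB55, and none passed. NDUFA13, also known as GRIM-19 and studied as a regulator of cell death and of STAT3, read 0.33, 0.08, 0.41 and 0.20 on MEB55 arrays and 0.19, 0.52, 0.39 and 0.19 on ST362 arrays, against -0.09, 0.07, 0.07 and -0.05 on vehicle arrays. All 8 analogue arrays were higher than all 4 vehicle arrays, with MEB55 6 h replicate 2 nearest to them. The differences were 0.25 (95% interval -0.0032 to 0.51, unadjusted p = 0.0526, adjusted p = 0.481) with MEB55 and 0.32 (95% interval 0.07 to 0.58, unadjusted p = 0.0173, adjusted p = 0.257) with ST362, or 1.19-fold and 1.25-fold. Both used the same vehicle arrays, and MEB55 minus ST362 was -0.07 (SE 0.12, adjusted p = 0.933). NDUFC2, a membrane subunit, was detected on 3 MEB55, 3 ST362 and 1 vehicle array, at a raw signal of 80.0 to 88.9. This gene, counted among the positive differences above, passed the detection filter only through groups given an analogue. Its values were 0.19, 0.07, 0.25 and 0.28 with MEB55 and 0.19, 0.13, 0.21 and 0.12 with ST362, against -0.02, 0.19, -0.08 and -0.09 with vehicle, where the 6 h replicate 2 array overlapped the analogue arrays. The difference was 0.20 with MEB55 (SE 0.11, adjusted p = 0.564) and 0.16 with ST362 (SE 0.11, adjusted p = 0.570).

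NDUFA11 and NDUFA10 of the same arm stood on either side of 0. NDUFA11, a subunit with several membrane helices, read 0.33, -0.18, -0.0041 and 0.05 on MEB55 arrays and 0.42, 0.13, 0.30 and 0.04 on ST362 arrays, against 0.01, 0.24, -0.03 and -0.21 on vehicle arrays, with differences of 0.05 (SE 0.14) and 0.22 (SE 0.14). NDUFA10, which resembles nucleoside kinases, read 0.09, -0.63, -0.26 and 0.15 with MEB55 and 0.02, -0.39, -0.28 and 0.27 with ST362, against -0.19, 0.13, 0.08 and -0.03 with vehicle. In both analogues its 6 h replicate 2 and 24 h replicate 1 arrays were below all vehicle arrays and the other two were not. Its second tested probe gave 0.09 with MEB55 and 0.08 with ST362, where the brighter one gave -0.16 and -0.09. The other genes of this arm were NDUFA1, NDUFA3, NDUFA8, NDUFC1 and NDUFS5. Their differences ran from -0.09 to 0.13 with MEB55 and from 0.06 to 0.14 with ST362.

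The distal membrane arm had 12 measured accessory genes, with 6 positive and 6 negative differences with MEB55 and 8 and 4 with ST362. NDUFB8, often blotted as a sign of assembled complex I, read 0.14, 0.20, 0.11 and 0.29 on MEB55 arrays and 0.21, 0.04, 0.24 and 0.10 on ST362 arrays, against -0.17, 0.01, 0.07 and 0.09 on vehicle arrays. The MEB55 arrays were all above the vehicle arrays and the ST362 arrays overlapped them. It differed from vehicle by 0.19 with MEB55 (SE 0.11, adjusted p = 0.597) and by 0.15 with ST362 (SE 0.11, adjusted p = 0.608). NDUFB3, a small membrane subunit, had the lowest p between the analogues. It read -0.12, 0.02, -0.16 and 0.07 with MEB55 and 0.03, 0.26, 0.38 and 0.22 with ST362, against -0.03, -0.19, -0.01 and 0.23 with vehicle. MEB55 minus ST362 was -0.27 (95% interval -0.53 to -0.0059, unadjusted p = 0.0457, adjusted p = 0.621), and 3 of the 4 ST362 arrays lay above every MEB55 array. A second tested probe of NDUFB3 gave -0.26 (SE 0.16, adjusted p = 0.715).

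NDUFB2 and NDUFB11, both single-pass membrane subunits, had positive differences with both analogues. NDUFB2 read 0.03, 0.18, 0.23 and 0.06 on MEB55 arrays and 0.25, 0.18, 0.40 and 0.0011 on ST362 arrays, against -0.15, 0.02, -0.0017 and 0.12 on vehicle arrays, with differences of 0.12 (SE 0.12) and 0.21 (SE 0.12). NDUFB11, whose gene is on the X chromosome, read 0.05, 0.14, 0.18 and 0.18 with MEB55 and -0.02, 0.38, 0.23 and 0.22 with ST362, against -0.32, 0.22, 0.07 and 0.04 with vehicle, with differences of 0.14 (SE 0.13) and 0.20 (SE 0.13). For both genes vehicle arrays lay within the range of the analogue arrays. NDUFB5, another single-pass subunit, ran the other way at -0.10, -0.13, 0.04 and -0.41 on MEB55 arrays and -0.27, 0.01, -0.09 and -0.27 on ST362 arrays, against -0.21, 0.09, -0.09 and 0.21 on vehicle arrays. Its differences were -0.15 (SE 0.13) and -0.15 (SE 0.13), and the lowest adjusted p of these 3 genes against vehicle was 0.480, for NDUFB2 with ST362. NDUFB1 was detected on 2 MEB55, 2 ST362 and 1 vehicle array and on 0 arrays labelled 24 h, with differences of 0.10 (SE 0.16) and 0.08 (SE 0.16). It passed the detection filter only through groups given an analogue, so the sign of these differences is not independent of the filter. The counts of positive differences in this arm include it. The remaining genes were NDUFAB1, the mitochondrial acyl carrier protein, and NDUFB4, NDUFB6, NDUFB7, NDUFB9 and NDUFB10. Their differences lay between -0.08 and 0.11 with MEB55 and between -0.11 and 0.14 with ST362. The second probe of NDUFB6 gave -0.05 with ST362, where the brighter one gave 0.14.

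Few members had analogue arrays that did not overlap the vehicle arrays. With MEB55, 2 of 35 members (5.71%), NDUFA13 and NDUFB8, had all 4 arrays above the 4 vehicle arrays, against 3.93% of genes, and 0 of 35 had all below, against 3.86%. With ST362, 1 of 35 (2.86%), NDUFA13, had all above, against 4.83%, and 0 of 35 all below, against 4.99%.

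The labelled comparisons, 2 arrays against 2, called 0 members and 0% of the 12290 genes each in limma. With MEB55 against vehicle at 6 h, 0 of 35 members had an unadjusted p under 0.05, against 4.89% of genes, and the members' median was -0.05. At 24 h the count was 1, against 5.72%, with a median of 0.05. For ST362 against vehicle it was 0 at 6 h, against 6.08% of genes, with a median of 0.0083, and 1 at 24 h, against 8.44%, with a median of 0.09. Without vehicle 6 h replicate 1 the 6 h medians were -0.16 with MEB55 and -0.11 with ST362, and without vehicle 6 h replicate 2 they were 0.06 and 0.18. MEB55 against ST362 gave 0 at 6 h, against 2.85% of genes, and 0 at 24 h, against 3.49%. The change of the effect between time labels gave 0 members with MEB55, against 0.976% of genes, and 1 with ST362, against 1.89%.

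The members behind those counts were NDUFV3 and NDUFC2. NDUFV3, an accessory subunit of the N module, read 0.05, 0.07, 0.46 and -0.06 on MEB55 arrays and -0.41, 0.04, 0.44 and 0.02 on ST362 arrays, against 0.34, 0.23, -0.30 and -0.27 on vehicle arrays. Both vehicle arrays labelled 6 h were high and both labelled 24 h were low, and neither analogue showed that order. Its ST362 difference was 0.51 at 24 h (SE 0.23, adjusted p = 0.652) and -0.47 at 6 h, and the change between them was 0.99 (SE 0.32, unadjusted p = 0.0120, adjusted p = 0.999). NDUFC2 was detected on both MEB55 24 h arrays and was not well above background on either vehicle 24 h array, so it passed the filter only through groups given an analogue. Its mean in MEB55 24 h was 1.10-fold the lowest signal that was well above background on the vehicle 24 h arrays. That ratio has no error estimate and does not show a least rise. In limma the difference of MEB55 24 h from vehicle 24 h was 0.35 (95% interval 0.0018 to 0.69, adjusted p = 0.924). When detection on all 12 arrays was required, NDUFC2 was not tested and 0 members had an unadjusted p under 0.05 in that comparison.

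The members' median also differed between arrays of 1 treatment. The members' median was 0.05, -0.13, 0.04 and -0.01 on the MEB55 arrays and 0.02, 0.04, 0.12 and 0.03 on the ST362 arrays, against -0.12, 0.13, -0.03 and 0.02 on the vehicle arrays. The medians of both analogues lay within the range of the vehicle arrays, apart from MEB55 6 h replicate 2, which was just below it. The widest gap between replicates was in the vehicle 6 h group, where 8 of 35 members were above the vehicle mean on replicate 1, the array with the brighter raw signal, and 30 of 35 on replicate 2. Over all genes the array medians kept between -0.03 and 0.02.

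HSPA6, a stress-inducible heat shock protein that served as a measure of the response on each array, read 6.46, 1.06, 0.25 and 7.99 with MEB55 and 5.95, 0.44, 0.20 and 6.51 with ST362, against 0.18, -0.04, -0.0004 and -0.14 with vehicle. The members' median was 0.05 on MEB55 6 h replicate 1 and -0.01 on MEB55 24 h replicate 2, where HSPA6 was high, and -0.13 and 0.04 on the other MEB55 arrays. With ST362 it was 0.02 and 0.03 on the arrays with high HSPA6 and 0.04 and 0.12 on the others. A median can hide single members: on its brightest probe, the analogue arrays on which NDUFA10 lay below all vehicle arrays were those with lower HSPA6. The second tested probe of NDUFA10 gave positive differences with both analogues over both time labels, and its values by array are not given here. Whether any member followed HSPA6 was not tested. With arrays so far apart, HSPA6 itself was not called over both time labels, at 3.94 with MEB55 (SE 1.68, adjusted p = 0.414) and 3.28 with ST362 (SE 1.68, adjusted p = 0.431). The study compared within a time instead. It reports HSPA6 as strongly raised at 6 h with both analogues, with a similar pattern by qRT-PCR. Of the 7 heat shock and ATF4 pathway genes set beside the members, TRIB3 alone was called, with MEB55 at 1.52 (SE 0.21, adjusted p = 0.00881). DDIT3, the stress factor CHOP, was at 1.98 (SE 0.80, adjusted p = 0.38) and ASNS, asparagine synthetase, at 0.89 (SE 0.21, adjusted p = 0.0879).

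**Figure D3:**
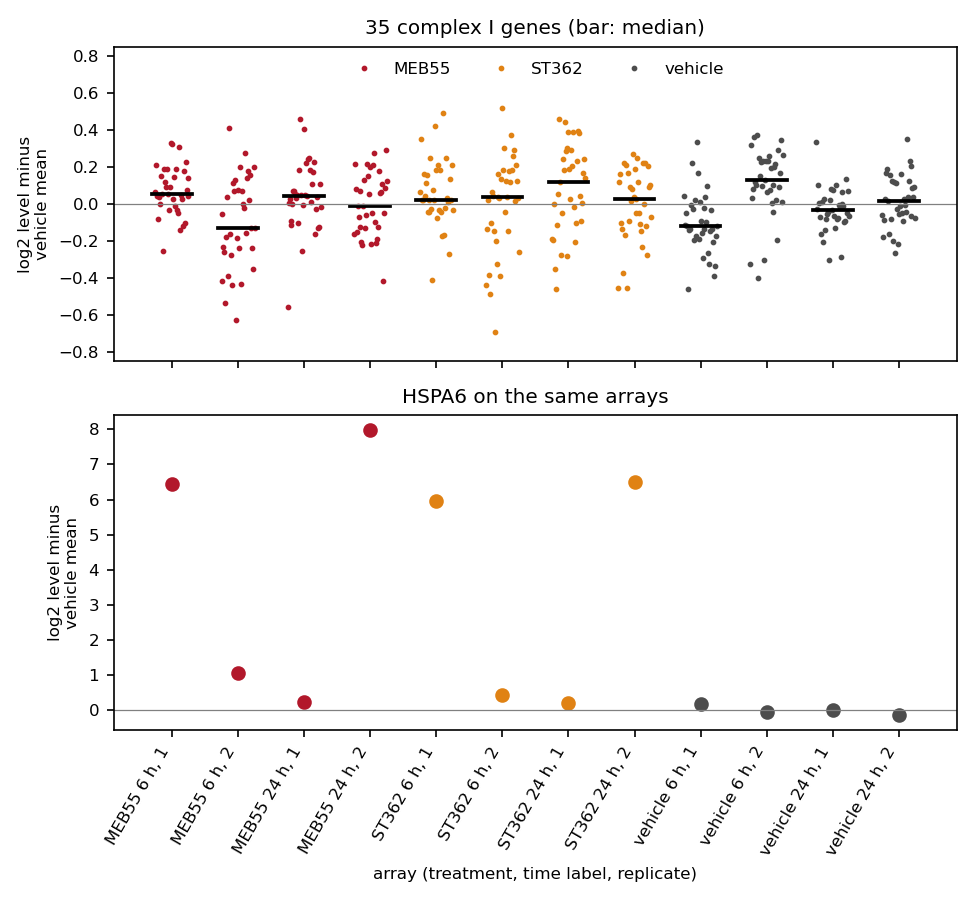
Upper panel, log2 levels of the 35 tested members (points) with their median (bar) on each of the 12 arrays, relative to the vehicle mean; lower panel, HSPA6 on the same arrays on a wider scale, with MEB55 in red, ST362 in orange and vehicle in grey. HSPA6 reached 7.99 on MEB55 24 h replicate 2, where the members' median was -0.01.

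The factors that build complex I were read from a list of 17 genes, all tested, and 0 were called in any comparison over both times. NDUFAF1, an early assembly factor for the membrane arm, came nearest, at 0.67 with MEB55 (SE 0.15, unadjusted p = 0.00056, adjusted p = 0.0787) and 0.62 with ST362 (SE 0.15, adjusted p = 0.0837). TIMMDC1, another assembly factor of the membrane arm, was at 0.35 with ST362 (SE 0.13, adjusted p = 0.24). The list's median was 0.0019 with MEB55 and -0.06 with ST362, with 1 and 2 genes of 17 higher at an unadjusted p under 0.05 and 0 lower, where 5.92% and 7.77% of all genes were higher.

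Genes of the other respiratory complexes were not called either. Complex II had 3 tested genes with medians of -0.03 with MEB55 and -0.09 with ST362, and SDHA, its flavoprotein, was at -0.33 with MEB55 (SE 0.12, adjusted p = 0.293). Complex III had 8 with medians of -0.05 and 0.05, and its CYC1, cytochrome c1, was at -0.29 with ST362 (SE 0.11, adjusted p = 0.296). Complex IV had 11 with medians of 0.04 and 0.08, and ATP synthase 16 with medians of -0.09 and 0.0013. ATP5MC3, a membrane ring subunit of ATP synthase, was at -0.01 with MEB55 and -0.34 with ST362, and MEB55 minus ST362 was 0.33 (SE 0.13, adjusted p = 0.535). COXFA4, the former NDUFA4, which is found in complex IV, was detected on 12 arrays, with differences of 0.10 with MEB55 and 0.06 with ST362 (SE 0.11 for each), neither past the test. It read 0.14, 0.14, 0.11 and 0.03 on MEB55 arrays and -0.12, 0.21, 0.24 and -0.08 on ST362 arrays, against -0.06, -0.03, 0.10 and -0.01 on vehicle arrays. COXFA4L2 was detected on 0 arrays.

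Of 14 listed regulators of mitochondrial genes 11 were tested, and 0 were called. Their medians were -0.01 with MEB55 and -0.07 with ST362. PPRC1, a coactivator related to PGC-1, had the largest difference, at -0.48 with MEB55 (SE 0.38, adjusted p = 0.737) and -0.82 with ST362 (SE 0.38, unadjusted p = 0.0487, adjusted p = 0.376). TFAM, which packages and transcribes mitochondrial DNA, stood at 0.02 and 0.06, and ESRRA, an oestrogen-related receptor, at 0.01 and -0.35. PPARGC1A, PPARGC1B and NRF1 did not pass the detection filter.

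**Figure D4:**
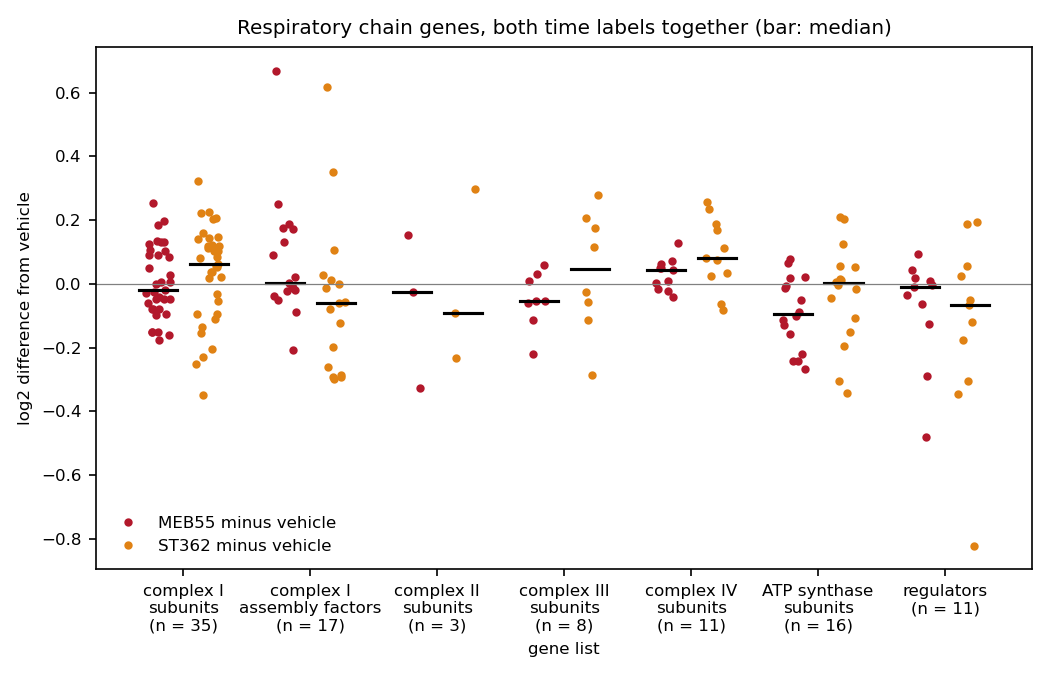
Log2 difference from vehicle over both time labels of each gene (point) in 7 lists, for MEB55 (red, left of each pair) and ST362 (orange, right), with the list's median as a bar and the number of tested genes under its name. Complex I subunits lay between -0.35 and 0.32, and NDUFAF1 and PPRC1 were the genes farthest from 0.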

How the data were processed

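Illumina bead arrays of U2OS cells were used, 2 per group. The authors deposited bead intensities per probe from GenomeStudio (version not given), without background subtraction or normalization. They deposited with them a detection p-value that sets each probe against the negative controls of that array. A second deposited set of intensities equals these after quantile normalization (largest relative gap 0.366%) and served as an alternative. For 47313 probes, limma 3.58.1 (neqc, offset 16) in R 4.3.3 gave normalized log2 values. A probe was tested when some group had detection p under 0.05 on each of its 2 arrays, which 22186 probes met, with lmFit and eBayes, two-sided, in a fit of the 6 groups and a fit of treatment alone. Of all probes, 30109 carry 1 symbol, 8 several and 17196 none in the probe table, and 5726 of those tested carry none. The number of arrays limits the precision. Named with values were members past the test, core subunits, COXFA4 and COXFA4L2, the 5 members per direction and analogue with the smallest p, members whose arrays did not overlap, and members detected on fewer than 12 arrays. NDUFV3, PPRC1, NDUFAF1, TIMMDC1, SDHA, CYC1, ATP5MC3, TFAM, ESRRA, HSPA6, DDIT3, ASNS and TRIB3 were chosen after their values were seen. The members and lists were chosen with earlier results of these data known. Alternatives covered background correction, offset, scaling, filters, variance models, blocks, probes of a gene, the methods' cutoff and each array left out.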

Additional observations from a re-analysis of the deposited data

Results flagged for a closer look

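In 57 groups of 4 arrays of a treatment, each with the level of 1 named member or the members' median, 4 had an array set apart from the other 3 by more than Dixon's limit allows, and chance alone flags about 1 in 20. NDUFV2 was at -0.23 on MEB55 6 h replicate 2, with the other MEB55 arrays at 0.03 to 0.08. It was also at 0.16 on ST362 24 h replicate 2, with the others at 0.00037 to 0.02. The median of the members was 0.12 on ST362 24 h replicate 1 and 0.02 to 0.04 on the other ST362 arrays. NDUFB1 was at 0.10 on vehicle 6 h replicate 1 and at -0.04 to -0.02 on the other vehicle arrays.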

How the results depend on the processing

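No alternative called a member in any of the 11 comparisons: all 277 counts stayed at 0, among them those with the replicate block, where 0 members passed with MEB55, 0 with ST362 and 0 between them. The numbers mark no stated pairing, and across the 15 pairs of groups the deviations of same-numbered arrays correlated at -0.39 to 0.49, with 3 over 0.1 and 5 under -0.1. The highest were MEB55 with ST362, at 0.49 for 6 h and 0.48 for 24 h. The lowest were between the time labels of an analogue, at -0.39 for MEB55 and -0.37 for ST362. The crossed replicate block, added after seeing the data for MEB55 at 6 h and ST362 at 24 h against vehicle, also called 0. At an unadjusted p under 0.05 the alternatives gave 0 to 3 members with MEB55 and 0 to 6 with ST362 over both times. Of the members' medians, 13 of 264 moved by more than the spread between replicates (SD 0.0962). Without vehicle 6 h replicate 1 the medians at 6 h were -0.16 with MEB55 and -0.11 with ST362, and without vehicle 6 h replicate 2 they were 0.06 and 0.18. Without MEB55 6 h replicate 2 the MEB55 median at 6 h was 0.08. Scaling to the 75th percentile turned the median of MEB55 minus ST362 over both times to 0.08. The median difference over all tested probes lay within 0.07 of 0 in every comparison under the 75th percentile, cyclic loess, the uncorrected signals and the authors' series values.

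Of the values of single named members, 59 of 1284 changed sign, all of them uncalled. Under the 75th percentile NDUFV1 was at -0.0612 and NDUFV2 at -0.0123 with ST362, and NDUFB3 at 0.0372, NDUFS8 at 0.0185 and NDUFV2 at 0.0691 with MEB55. In MEB55 minus ST362 the same scaling gave 0.033 for NDUFA10, 0.0287 for NDUFA13, 0.0896 for NDUFB11, 0.0666 for NDUFB2, 0.0846 for NDUFV1 and 0.0814 for NDUFV2. With MEB55, cyclic loess gave -0.0308 for NDUFA5 and 0.00523 for NDUFV2, and array weights gave -0.031 for NDUFA5 and 0.00867 for NDUFA6. Leaving out each array in turn gave these ranges with MEB55: NDUFA11 from -0.0438 to 0.128, NDUFA5 from -0.136 to 0.0848, NDUFA6 from -0.117 to 0.043, NDUFB3 from -0.111 to 0.0304, NDUFS8 from -0.116 to 0.00156, NDUFV1 from -0.0654 to 0.146 and NDUFV2 from -0.0524 to 0.0513. The ranges with ST362 were NDUFA10 from -0.215 to 0.00458, NDUFA5 from -0.0974 to 0.111, NDUFB1 from -0.0573 to 0.174 and NDUFV1 from -0.0698 to 0.143. The ranges in MEB55 minus ST362 were NDUFA10 from -0.172 to 0.0894, NDUFA5 from -0.173 to 0.048, NDUFB1 from -0.0714 to 0.16, NDUFB5 from -0.0609 to 0.0908, NDUFS1 from -0.00482 to 0.203, NDUFS3 from -0.00558 to 0.129, NDUFS7 from -0.00527 to 0.21, NDUFS8 from -0.00481 to 0.136 and NDUFV1 from -0.106 to 0.11. The cause was not tested. Signal over background limits NDUFA5, NDUFB1, NDUFB4, NDUFC2, NDUFS1 and NDUFV3, whose fold differences background compresses.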
